A study of Mus musculus with 2 samples.

Results

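Pseudogenes that carry the name of a parent gene were examined in mouse embryonic stem cells (ESCs). Members were chosen by symbol and by measured reads: a row was selected when its symbol ended in -ps, alone or followed by digits, and its reads over both libraries summed to at least 20. Of 24532 rows, 121 carried such a symbol and 37 of these passed. The other named pseudogenes had 0 reads in both libraries (67 rows) or 1 to 19 reads in all (17 rows). Just outside the limit lay Pdxk-ps, with 17 reads in E14 against 0 in E14-Sox2 TA/WT, and Gpx2-ps1 and Speer5-ps1, with 8 and 2 reads each. Just inside it lay H2-T-ps with 6 and 23 reads, Rps15a-ps4 with 20 and 11, and Slc22a13b-ps with 23 and 12.

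The data were poly(A) RNA-seq profiles of E14, a wild-type mouse ESC line, and of E14-Sox2 TA/WT, an E14 derivative in which CRISPR/Cas9 editing changed threonine 258 of the pluripotency factor Sox2 to alanine (T258A) in 1 allele, the other allele being wild-type. Each genotype had 1 library, with 60263536 and 44609228 reads assigned to genes, so a difference between the genotypes could not be set against replicates and none was tested. Per the study's methods, edited cells were grown from single sorted cells and clones were picked by sequencing. E14 was cultured in serum with leukemia inhibitory factor (LIF). The edited clones were normally kept in serum, LIF and the inhibitor mix 2i, and were used for experiments after 2i had been removed. The effect of T258A therefore cannot be told apart from the history of a clone and of its culture. All 9 ESC markers of a fixed list were present at 158 to 6877 TPM (transcript abundance, corrected for length and scaled within the library) in E14 against 104 to 4429 TPM in E14-Sox2 TA/WT, whereas 7 fibroblast markers summed to 49.8 and 19.5 TPM, with 2 of them at 0 in both libraries, 4 primitive endoderm markers to 34.2 and 8.72 TPM, and 4 trophoblast markers to 3.39 and 15.9 TPM.

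A pseudogene is a gene sequence, usually a copy of another gene, that has lost, or is annotated as having lost, the ability to make the gene's protein. Processed pseudogenes arise when a spliced mRNA is copied back into the genome, so they lack introns, and highly transcribed genes such as those for ribosomal proteins have many of them. Unprocessed pseudogenes arise by duplication of the gene itself and keep its exon structure. Because a copy can be nearly identical to its parent, a sequencing read often matches both places, and the row that receives it depends on how the reads were assigned.

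Not every member is annotated as a pseudogene. RefSeq classed 29 of the 37 members as transcribed pseudogenes, 1 as a pseudogene, 4 as protein-coding (Rpl34-ps1, Rpl31-ps12, Fthl17-ps1 and H2-T-ps), 2 as long non-coding RNAs and 1 as miscellaneous RNA. In GENCODE, Nutf2-ps1 was a protein-coding gene and Smkr-ps a long intergenic non-coding RNA. GENCODE also classed 3 members (Zfp862-ps, Slc2a4rg-ps and Zfp133-ps) as unitary and 2 (Cdk3-ps and Slc22a13b-ps) as polymorphic pseudogenes. These class names do not state whether a member is a processed or an unprocessed copy. The members lay on 14 chromosomes, with 6 each on chromosomes 11 and 17.

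The parent's own row was present for 20 members, which belonged to 18 families, and each of these 20 was aligned to its parent's transcripts. In 15 of the 20 the annotated copy had 1 exon although its parent had at least 3, as in a processed copy. Rplp2-ps1 is not among these 15. Its exons were counted on the Wdr89 transcript that covers it, although its annotated bases lie inside 1 exon. Identity to the parent ranged from 88.6% for Bambi-ps1 to 100% for Apoo-ps and Nutf2-ps1, and 7 members were at least 99% identical. Identity over a whole alignment does not show how many reads could tell the copies apart. So the share of 100-base windows of each member's GENCODE transcript that occur letter for letter in a parent transcript was also counted. This share was 100% for Apoo-ps, 95.9% for Nutf2-ps1, 87.0% for Morf4l1-ps1, 79.7% for Oaz1-ps, 72.7% for Atp6v0c-ps2, 60.6% for Rpl14-ps1 and 51.1% for Rpl31-ps12. It was below 50% for the other 13, and 0% for the compared bases of Pisd-ps1 (1115), Bambi-ps1 (592) and Hmga2-ps1 (339). The compared transcript covered only part of some loci, 969 of 5159 bases for Morf4l1-ps1, and the rest was not compared. Atp6v0c-ps2 was likewise compared over 465 bases of a longer locus.

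The stretches below, 150 bases each from the GENCODE transcripts on GRCm38, show how close the copies that matter most to the counts were. They are read 5′ to 3′ along the transcript, and capitals mark every base at which the pseudogene and its parent differ. Each is the gap-free 150-base stretch of the parent's coding sequence that held the most differences, so it is not typical of the copy. Apoo-ps (minus strand, chr13:107414163-107414767 on GRCm38) and Nutf2-ps1 (minus strand, chr19:53588186-53589065) had no difference from their parents over the first 150 bases of the parent's coding sequence, so 1 line stands for both genes.
Apoo-ps and Apoo: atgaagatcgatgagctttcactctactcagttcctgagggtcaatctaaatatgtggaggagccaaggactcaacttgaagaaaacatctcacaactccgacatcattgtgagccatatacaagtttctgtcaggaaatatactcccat
Nutf2-ps1 and Nutf2: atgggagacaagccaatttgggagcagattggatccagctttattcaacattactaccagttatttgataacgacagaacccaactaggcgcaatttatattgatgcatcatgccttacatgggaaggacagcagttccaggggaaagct

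Atp6v0c-ps2 (plus strand, chr6:37805975-37807107) differed from Atp6v0c at 1 base in 465, written T111C, in which the parent's base comes first, the position is counted from 1 at the first base of the parent's coding sequence, and the pseudogene's base comes last. The pair is shown because its rows had opposite counts in the libraries, the pseudogene high in E14 and the parent high in E14-Sox2 TA/WT.
Atp6v0c-ps2: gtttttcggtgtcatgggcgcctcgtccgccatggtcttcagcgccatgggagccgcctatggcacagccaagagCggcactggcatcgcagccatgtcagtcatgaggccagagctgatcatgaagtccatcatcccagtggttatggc
Atp6v0c: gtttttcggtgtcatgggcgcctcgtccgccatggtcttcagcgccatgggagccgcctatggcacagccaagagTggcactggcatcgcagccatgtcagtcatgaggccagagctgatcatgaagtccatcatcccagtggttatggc

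Oaz1-ps (minus strand, chr17:17345242-17346204), the member with the most reads, differed from Oaz1 by 1 substitution, G125C, and 1 gap base over 685 bases.
Oaz1-ps: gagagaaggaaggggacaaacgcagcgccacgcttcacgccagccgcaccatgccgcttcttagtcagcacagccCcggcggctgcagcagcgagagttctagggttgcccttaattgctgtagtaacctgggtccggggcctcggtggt
Oaz1: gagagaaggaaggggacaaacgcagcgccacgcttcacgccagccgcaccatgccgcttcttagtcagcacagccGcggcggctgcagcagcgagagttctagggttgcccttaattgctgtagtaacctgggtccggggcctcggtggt

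Rps19-ps3 (minus strand, chr4:147821777-147822202) is shown as a contrast, a copy that reads could tell apart from its parent more often. The stretch held 9 of the 14 mismatches in the alignment of 432 bases, among them T154G, T210G and G302T. Only 7.95% of the 100-base windows of Rps19-ps3 occurred in an Rps19 transcript.
Rps19-ps3: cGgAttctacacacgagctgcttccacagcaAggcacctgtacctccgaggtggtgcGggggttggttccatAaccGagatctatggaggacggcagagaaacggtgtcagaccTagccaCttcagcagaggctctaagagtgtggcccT
Rps19: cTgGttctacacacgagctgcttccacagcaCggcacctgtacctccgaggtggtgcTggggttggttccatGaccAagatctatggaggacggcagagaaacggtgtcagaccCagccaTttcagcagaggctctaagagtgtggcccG

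The longest open reading frame was taken from an ATG to a stop codon or to the end of the annotated copy. In 7 of the 20 aligned members it was as long as the annotated coding sequence of the parent's transcript. These were Apoo-ps (164 codons), Atp6v0c-ps2 (155), Morf4l1-ps1 (323), Nutf2-ps1 (127), Rpl31-ps12 (125), Rpl34-ps1 (117) and Rplp2-ps1 (115). In Rps19-ps3 the longest frame had 34 codons, against 145 in the annotated coding sequence of Rps19.

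Together the 37 members held 57361 reads in E14 against 36611 in E14-Sox2 TA/WT, which was 0.0952% and 0.0821% of the reads in each library. The reads were concentrated in a few members, since the 6 with the most reads held 79.1% of the member reads in E14 against 82.6% in E14-Sox2 TA/WT. Per transcript length, the median member stood at 3.04 TPM in E14 against 2.57 TPM in E14-Sox2 TA/WT. Only 11 members reached 10 TPM in either library, and 8 in E14 against 11 in E14-Sox2 TA/WT lay below 1 TPM.

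**Figure D1:**
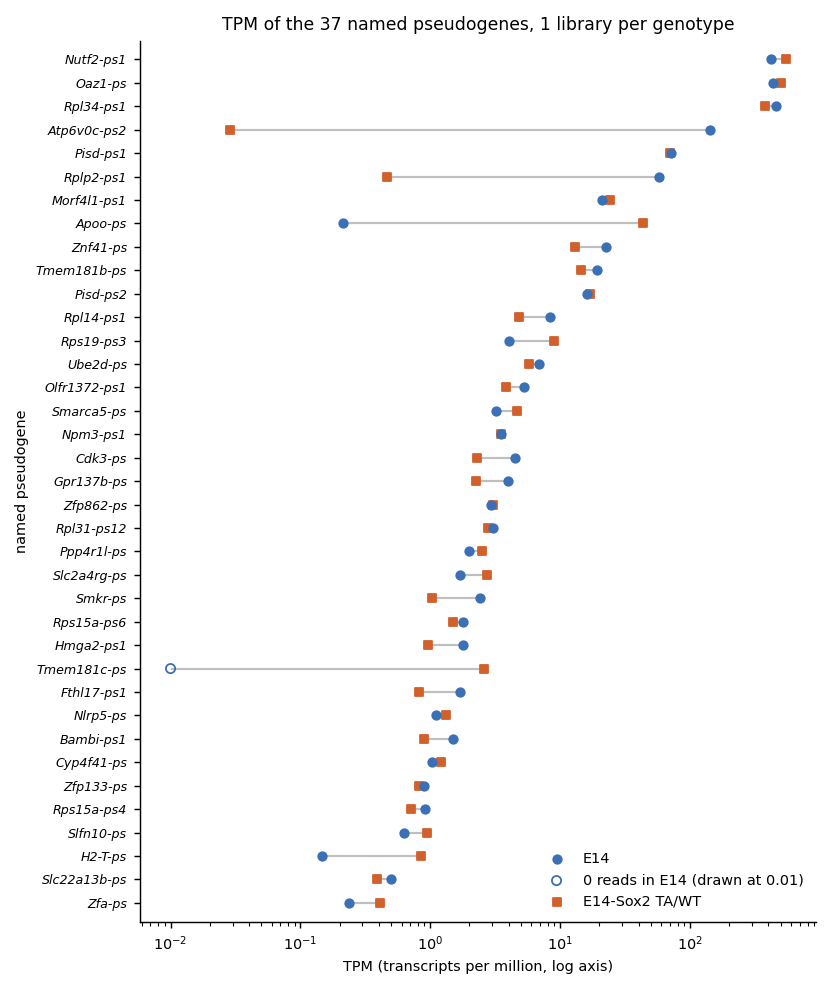
TPM (log axis) of each of the 37 named pseudogenes in E14 (circles) and E14-Sox2 TA/WT (squares), 1 library each, joined by a line; the open circle marks Tmem181c-ps, which had 0 reads in E14. Most pairs nearly coincide, and long lines join the values of Atp6v0c-ps2, Rplp2-ps1, Apoo-ps and Tmem181c-ps.

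On the TPM scale 4 members were more than 2-fold higher in E14-Sox2 TA/WT (Apoo-ps, Tmem181c-ps, H2-T-ps and Rps19-ps3), 4 were more than 2-fold lower (Atp6v0c-ps2, Rplp2-ps1, Smkr-ps and Fthl17-ps1) and 29 were within 2-fold. For comparison, of all 15459 rows with at least 20 reads, 7.08% were more than 2-fold higher and 13.0% more than 2-fold lower, so the members' counts were close to what the whole table showed. Among 105 rows that RefSeq annotates as pseudogenes but that carry other names, the shares were 9.52% and 21.9%. The median log2 TPM ratio was −0.13 over the 36 members with reads in both libraries, against 0.01 over 15253 such rows of the whole table and 0.00 over the other annotated pseudogenes. In bulk samples such as these, fewer cells expressing a gene and less RNA per cell cannot be told apart.

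The limit on summed reads bears on these counts. Of the 37 members, 10 had fewer than 20 reads in one of the libraries, and 7 of the 8 members past 2-fold were among those 10, the exception being Rps19-ps3. A member that passed mainly through the library in which it was high had to differ, so the size of these ratios is a description and not evidence about pseudogenes as a class. Counting intervals (95%, Clopper-Pearson on the split of a row's reads between the libraries, placed on the TPM scale) cover counting error only, since reads without molecular identifiers are not independent molecules. The interval lay wholly past 2-fold for 5 members, Apoo-ps, Tmem181c-ps and H2-T-ps above and Atp6v0c-ps2 and Rplp2-ps1 below, against 11.6% of all rows. It left out a ratio of 1 for 25 members, 11 higher and 14 lower, against 78.2% of all rows. This count depends on the TPM scale and was not repeated under other scaling.

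**Figure D2:**
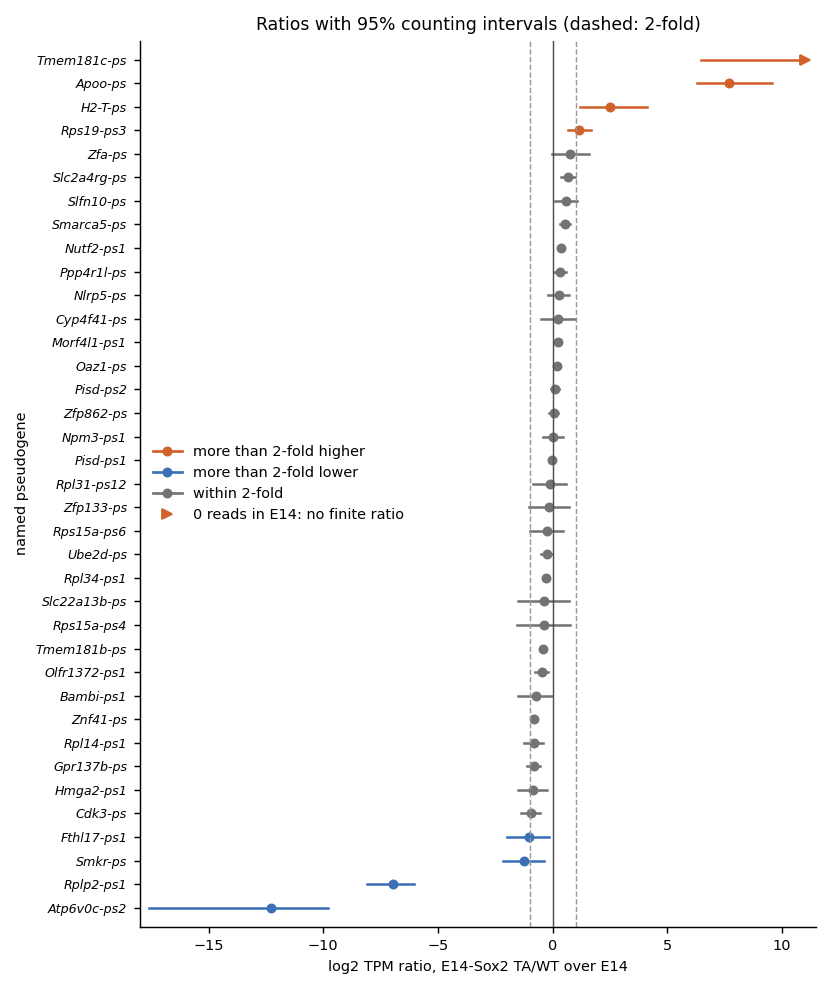
The log2 TPM ratio of each member, E14-Sox2 TA/WT over E14 (points), with its 95% counting interval (bars); dashed lines mark 2-fold, and the arrow marks Tmem181c-ps, whose ratio has no upper limit because it had 0 reads in E14. Of the 37 intervals, 5 lie wholly outside the dashed lines.

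Atp6v0c-ps2 is a copy of Atp6v0c, which encodes the membrane-spanning proteolipid subunit of the vacuolar proton pump. Atp6v0c-ps2 had 5044 reads (143 TPM) in E14 against 1 read (0.0286 TPM) in E14-Sox2 TA/WT, a log2 TPM ratio of −12.29 with a counting interval from −17.60 to −9.81. At 1 read the deposited TPM does not follow the whole read exactly, and from the reads themselves the log2 ratio in CPM, reads scaled to the library total alone, was −11.87. Its parent went the other way, with 444 reads (12.2 TPM) in E14 against 4210 (173 TPM) in E14-Sox2 TA/WT, a log2 TPM ratio of 3.82 (interval 3.68 to 3.97). The pseudogene row therefore held 91.9% of the reads of the pair in E14 (95% interval 91.2% to 92.6%) and 0.0237% in E14-Sox2 TA/WT (0.000601% to 0.132%). The sum of the pair was 5488 and 4211 reads, and its log2 CPM ratio was 0.05 (interval −0.01 to 0.11). Each row of the pair differed many-fold, in opposite directions, while the counting interval of their sum by CPM included no change. By CPM the median log2 ratio of all rows was −0.13, so whether that interval includes no change depends on the scale.

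Apoo-ps is a copy of Apoo, which encodes a protein of the mitochondrial inner membrane. Apoo-ps had 4 reads (0.214 TPM) in E14 against 544 (43.5 TPM) in E14-Sox2 TA/WT, a log2 TPM ratio of 7.67 (interval 6.30 to 9.55). Apoo had 1782 reads (59.6 TPM) and 628 (25.7 TPM), a ratio of −1.21 (interval −1.34 to −1.08). The pseudogene's share of the pair was 0.224% in E14 (interval 0.0611% to 0.572%) and 46.4% in E14-Sox2 TA/WT (43.5% to 49.3%). Here the pseudogene was the row that was high in E14-Sox2 TA/WT, the opposite arrangement to the Atp6v0c pair. The 1786 and 1172 summed reads gave a log2 CPM ratio of −0.17 (interval −0.28 to −0.07), well inside 2-fold.

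Rplp2-ps1 copies Rplp2, which encodes an acidic protein of the ribosomal stalk. It had 1508 reads (58.0 TPM) in E14 against 9 (0.467 TPM) in E14-Sox2 TA/WT, a log2 TPM ratio of −6.96 (interval −8.09 to −6.03). Rplp2 itself had 44950 reads (3236 TPM) and 31779 (3415 TPM), and the sum of both rows gave a log2 CPM ratio of −0.11. The share of the pair in the pseudogene row was 3.25% in E14 against 0.0283% in E14-Sox2 TA/WT. Rplp2-ps1 is annotated at chr12:75630918-75631749, and all 832 bases of it lie inside an exon of Wdr89, which had 912 reads in E14 against 1499 in E14-Sox2 TA/WT (log2 TPM ratio 1.29). Its annotated bases thus coincide with Wdr89 by position, and 447 of them align to Rplp2 with 3 mismatches.

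**Figure D3:**
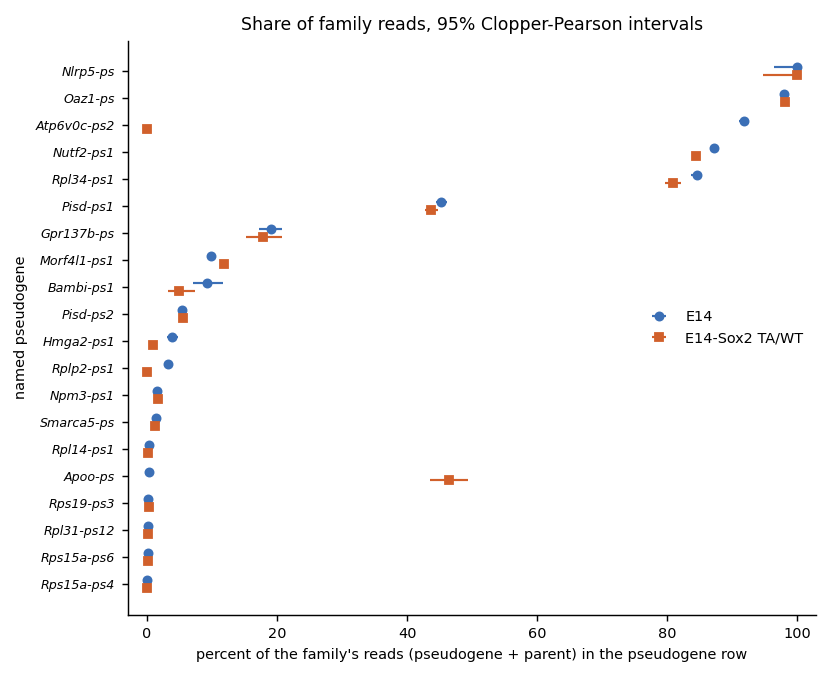
Percent of the reads of each family, the parent plus all its members, that were assigned to the pseudogene row in E14 (circles) and E14-Sox2 TA/WT (squares), with 95% Clopper-Pearson intervals, for the 20 members with a parent row. Atp6v0c-ps2 goes from 91.9% to 0.0237% and Apoo-ps from 0.224% to 46.4%, whereas the other 18 differ by under 5 percentage points.

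The share of family reads was compared in this way for all 20 members with a parent row. The intervals of the libraries did not overlap for 9 of them, but the difference reached 5 percentage points only for Atp6v0c-ps2 and Apoo-ps. Among the remaining 7, the differences ran from −3.64 percentage points for Rpl34-ps1 to 1.94 for Morf4l1-ps1. Taken alone by CPM, 5 of the 20 members were past 2-fold, against 20.9% of all rows by the same measure. With reads summed, 1 of 18 families was, the Hmga2 family. The share of all rows counts single rows with as few as 20 reads, and no background of summed families was computed. The median CPM ratio of all rows lay 0.14 below the median TPM ratio on the log2 scale.

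**Figure D4:**
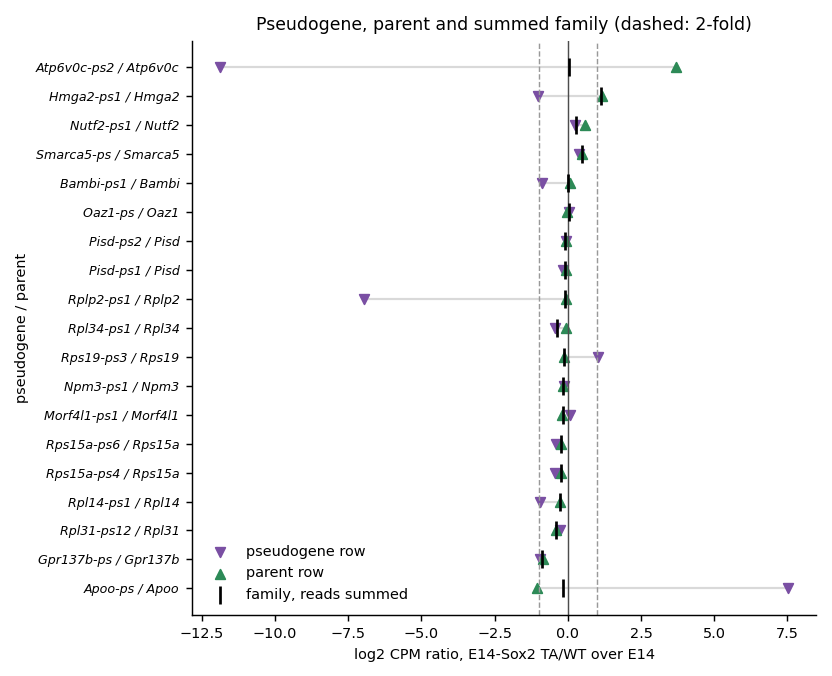
The log2 CPM ratio, E14-Sox2 TA/WT over E14, of the pseudogene row (downward triangles), the parent row (upward triangles) and their summed reads (ticks); the Nlrp5 family is left out because Nlrp5 had 0 reads. In the Atp6v0c and Apoo pairs the triangles lie on opposite sides of 0 and the tick lies near 0, at 0.05 and −0.17.

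Both members whose share of family reads differed by at least 5 percentage points were among the 7 with at least 50% of their compared windows in the parent. The 13 members below 50% all differed by less. However, 9 of the 20 members held under 5% of family reads in both libraries and could move few points. Rplp2-ps1, 1 of these, went from 3.25% in E14 to 0.0283% in E14-Sox2 TA/WT. Of the 7 members with at least 50% of their 100-base windows in the parent, Apoo-ps and Atp6v0c-ps2 differed between the libraries by 46.2 and −91.9 percentage points, and Nutf2-ps1, Morf4l1-ps1, Oaz1-ps, Rpl14-ps1 and Rpl31-ps12 by −2.83, 1.94, 0.0849, −0.0997 and 0.00904. How reads with several matches were assigned is not given in the sources used here, and its part in these differences was not tested.

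**Figure D5:**
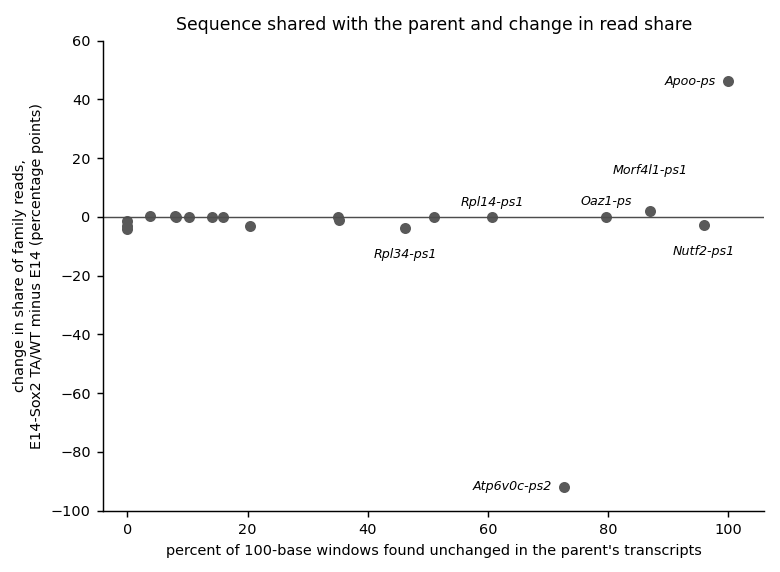
For each of the 20 members with a parent row, the percent of its 100-base windows found unchanged in the parent's transcripts (horizontal axis) against the change in its share of family reads, E14-Sox2 TA/WT minus E14, in percentage points (vertical axis). All points but Apoo-ps (46.2) and Atp6v0c-ps2 (−91.9) lie within 5 points of 0, and these exceptions have window shares of 100% and 72.7%. Windows are those of the compared transcript.

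Several members held more reads than their parents. Oaz1-ps is a copy of Oaz1, the antizyme that restrains polyamine synthesis. It had 13127 reads (433 TPM) in E14 against 10065 (496 TPM) in E14-Sox2 TA/WT, whereas Oaz1 had 262 (7.74 TPM) and 192 (8.45 TPM). The pseudogene row thus took 98.0% and 98.1% of the pair, and its log2 TPM ratio was 0.19 (interval 0.16 to 0.23).

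Nutf2-ps1, a copy of the gene for a nuclear import factor that carries Ran, was the next by reads, at 11463 (416 TPM) and 10023 (543 TPM). Nutf2 had 1668 (26.9 TPM) and 1843 (44.4 TPM), so the copy held 87.3% of the pair in E14 against 84.5% in E14-Sox2 TA/WT. Both rows were somewhat higher in E14-Sox2 TA/WT, with log2 TPM ratios of 0.38 (interval 0.35 to 0.42) for Nutf2-ps1 and 0.72 (0.63 to 0.82) for Nutf2. Nlrp5-ps, whose parent acts in the oocyte and early embryo, had 104 and 69 reads while Nlrp5 had 0 in both.

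Ribosomal protein copies made up 7 members, of which 1 was more than 2-fold higher (Rps19-ps3), 1 more than 2-fold lower (Rplp2-ps1) and 5 within 2-fold, with a median log2 TPM ratio of −0.30. At 1 of 7 each way, these counts are near the 7.08% higher and 13.0% lower of all rows. Rpl34-ps1 was the most abundant of them per length, with 5987 reads (460 TPM) in E14 against 3264 (374 TPM) in E14-Sox2 TA/WT (log2 −0.30, interval −0.36 to −0.24). It exceeded its parent, since Rpl34 had 1087 (65.5 TPM) and 766 (66.5 TPM), and its share was 84.6% and 81.0%. The windows of Rpl34-ps1 occurred in Rpl34 at 46.3% but in the transcripts of any other gene at 98.4%.

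Rps19-ps3 had 54 reads (4.0 TPM) in E14 against 81 (8.97 TPM) in E14-Sox2 TA/WT, a log2 TPM ratio of 1.16 whose interval, 0.65 to 1.69, reached below 2-fold. Rps19 was at 46599 and 31288 reads with a log2 TPM ratio of 0.00, so the copy took 0.116% and 0.258% of the pair. Rpl14-ps1 was lower, with 184 reads (8.41 TPM) and 71 (4.78 TPM), a ratio of −0.81 (interval −1.23 to −0.41), beside −0.14 for Rpl14. It lies wholly within Trpm4 on the opposite strand, outside the exons of that gene. Rpl31-ps12 (47 and 29 reads), Rps15a-ps6 (47 and 26) and Rps15a-ps4 (20 and 11) had intervals that included a ratio of 1, and each held at most 0.102% of its family's reads in either library.

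The parent of Morf4l1-ps1 encodes a chromodomain protein of histone acetyltransferase complexes. The copy had 3378 reads (20.8 TPM) and 2651 (24.3 TPM), with a log2 TPM ratio of 0.23 (interval 0.15 to 0.30), and Morf4l1 had 30960 and 19866 reads with a ratio of −0.06. Morf4l1-ps1 lies within an intron of Lpp on the same strand, and Lpp had 1596 and 2357 reads. Smarca5-ps, a copy of the gene for an ISWI chromatin remodelling ATPase, was higher at 381 and 369 reads (3.22 and 4.65 TPM), with a log2 TPM ratio of 0.53 (interval 0.32 to 0.74), beside 0.62 for Smarca5. Pseudogene and parent thus had ratios of the same sign and similar size here.

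Hmga2-ps1 and Hmga2, which encodes an AT-hook DNA-binding protein of embryonic cells, went in opposite directions. Hmga2-ps1 had 85 reads (1.77 TPM) in E14 against 31 (0.966 TPM) in E14-Sox2 TA/WT, a log2 TPM ratio of −0.87 (interval −1.52 to −0.26). Hmga2 had 2119 reads (18.1 TPM) and 3537 (45.0 TPM), a ratio of 1.31 (interval 1.24 to 1.39). Unlike in the Atp6v0c and Apoo pairs, the sum followed the parent, with a log2 CPM ratio of 1.13 (interval 1.05 to 1.21). Npm3-ps1, a copy of the gene for a nucleolar histone chaperone, had 109 and 74 reads and a ratio of 0.02 (interval −0.43 to 0.46).

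Pisd encodes the mitochondrial enzyme that makes phosphatidylethanolamine from phosphatidylserine, and its copies were both well covered. Pisd-ps1 had 6363 reads (70.7 TPM) and 4237 (70.3 TPM), a log2 TPM ratio of −0.01 (interval −0.07 to 0.05). Pisd-ps2 had 747 (16.0 TPM) and 535 (17.1 TPM), a ratio of 0.10 (interval −0.07 to 0.26). Both intervals included a ratio of 1 on the TPM scale. By CPM the log2 ratio of Pisd-ps1 was −0.15, below its TPM interval, so for Pisd-ps1 this depends on the scale. Pisd-ps1 held 45.3% and 43.7% of the Pisd family's reads.

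Gpr137b-ps, named after a lysosomal membrane protein, had 370 reads (3.99 TPM) and 141 (2.26 TPM), a log2 TPM ratio of −0.82 (interval −1.11 to −0.54), close to −0.71 for Gpr137b. Its share of the pair, 18.99% and 17.9%, had overlapping intervals. Bambi-ps1, a copy of the gene for a decoy receptor of the TGF-β family, had 57 and 23 reads and a log2 TPM ratio of −0.73 (interval −1.50 to −0.01). Bambi had 564 and 442 reads and a ratio of 0.23 (interval 0.04 to 0.41), and the pseudogene's share, 9.18% and 4.95%, again had overlapping intervals.

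No row bore the parent's symbol for the other 17 members. The closest gene by sequence was therefore looked up among all transcripts, and 9 of the 17 had one with at least 200 aligned bases at 80% identity or more. These closest genes were named after the values had been seen. Tmem181c-ps had 0 reads in E14 against 220 (2.57 TPM) in E14-Sox2 TA/WT, at least 109-fold higher against a floor of 3 reads in E14. Its nearest relative, Tmem181b-ps, had 2847 reads (19.2 TPM) and 1443 (14.5 TPM), a log2 TPM ratio of −0.40 (interval −0.50 to −0.31). Tmem181a, which is 98.8% identical to Tmem181b-ps over 1680 bases, had 4105 and 1716 reads. The 3 Tmem181 rows summed to 6952 and 3379 reads, a log2 CPM ratio of −0.61 (interval −0.67 to −0.55), so the sum was lower although Tmem181c-ps was higher.

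Znf41-ps, a zinc-finger gene copy, had 3237 reads (22.5 TPM) in E14 against 1245 (12.9 TPM) in E14-Sox2 TA/WT, a log2 TPM ratio of −0.80 (interval −0.90 to −0.71). The closest gene, Gm13139, is 99.5% identical to it over 2413 bases and had 7215 and 202 reads. Here both rows were lower in E14-Sox2 TA/WT, and the sum was as well, with a log2 CPM ratio of −2.42.

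Fthl17-ps1, which belongs to a group of ferritin heavy chain-like genes on the X chromosome, had 46 reads (1.69 TPM) and 15 (0.824 TPM), a log2 TPM ratio of −1.04 (interval −1.99 to −0.17). All 7 rows of the Fthl17 group were more than 2-fold lower, with log2 TPM ratios from −2.09 to −1.04, and their sum went from 329 to 83 reads. H2-T-ps, a class I histocompatibility gene copy, had 6 reads (0.147 TPM) and 23 (0.844 TPM), a ratio of 2.52 (interval 1.18 to 4.10). The closest gene, H2-T23, had 7 and 22 reads, and thus H2-T-ps and H2-T23 were both higher. H2-T-ps also overlaps Gm7030 on the same strand, over 2005 bases (74.4% of the H2-T-ps locus), of which 14 lie in Gm7030 exons. Gm7030 had 25 and 3 reads.

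Of the remaining members without a parent row, Smkr-ps, named after a small lysine-rich protein, had 51 reads (2.42 TPM) and 15 (1.02 TPM), a log2 TPM ratio of −1.25 whose interval, −2.18 to −0.39, reached above 2-fold lower. Cdk3-ps, named after a cyclin-dependent kinase, had 201 reads (4.47 TPM) and 70 (2.30 TPM), a ratio of −0.96 (interval −1.37 to −0.56). Olfr1372-ps1, an olfactory receptor gene copy, had 295 reads and 142 (log2 TPM ratio −0.48, interval −0.78 to −0.19). All 3 were lower in E14-Sox2 TA/WT beyond counting error.

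Higher by TPM in E14-Sox2 TA/WT was Slc2a4rg-ps with 160 and 172 reads (log2 TPM ratio 0.68, interval 0.36 to 0.995). So were Slfn10-ps of the Schlafen family with 72 and 72 (0.59, interval 0.10 to 1.08) and Ppp4r1l-ps with 281 and 235 (0.32, interval 0.06 to 0.57). By CPM the log2 ratios of these members were smaller, at 0.54, 0.43 and 0.18 in turn, and no CPM intervals were computed for them. Ube2d-ps, named after ubiquitin-conjugating enzymes, had 399 and 225 reads and a ratio of −0.25. The intervals of the last 5 members all included a ratio of 1. These were Zfp862-ps with 571 and 390 reads, Cyp4f41-ps with 36 and 29, Zfa-ps with 26 and 30, Zfp133-ps with 31 and 19, and Slc22a13b-ps with 23 and 12. Slc22a13b-ps lies wholly within Slc22a14 on the same strand, and Slc22a14 had 57 and 4 reads.

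Counting over the compared transcripts of all 37 members, 27 shared at least 1 window of 100 bases with a transcript of another gene and 10 shared none. Some of the 10 were compared in part only, such as Hmga2-ps1 over 339 bases of a locus of 1510. Of those 10, 0 were more than 2-fold higher and 1, Smkr-ps, was more than 2-fold lower. These counts are near the 7.08% and 13.0% of all rows, and this split was made after the values had been seen.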

How the data were processed

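Poly(A) RNA-seq libraries of E14 and E14-Sox2 TA/WT ESCs, 1 per genotype, were taken as deposited by the authors, in a gene table on mm10 (GRCm38) holding read counts, FPKM and TPM. The submitters' processing notes name bcl2fastq 2.20.0, Trimmomatic, HISAT2 2.1.0 and StringTie 2.1.3b without roles, and mm10 beside hg19. Read length, strand and the handling of reads with several matches are not given in the sources used here. Since TPM is scaled within each library, a change in a few abundant genes shifts all ratios.

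Ratios used the deposited TPM values, E14-Sox2 TA/WT over E14, and sums over families used CPM computed from the deposited counts. The threshold was 2-fold. Intervals were 95% Clopper-Pearson (Python 3.11.15, SciPy 1.17.1, pandas 2.3.3), and a fold against 0 reads was set against a floor of 3 reads, which is 0.0498 CPM for E14 or 0.0673 CPM for E14-Sox2 TA/WT. With 1 library per genotype no test across genotypes was run. Transcripts came from GENCODE M21 on GRCm38 and locations from RefSeq on GRCm38.p6. Of the 37 members, 22 were matched to transcripts by RefSeq identifier, 13 by symbol, Hmga2-ps1 by coordinates and Rplp2-ps1 by the Wdr89 exon that covers it. Alignments were made with BLAST 2.17.0. The alternatives used edgeR 4.0.16 (TMM) and DESeq2 1.42.0 (size factors), in R 4.3.3, for scaling only. The interval and window code was tested on simulated data.

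The members, marker lists and rules were chosen with earlier results of these data known. Given in full were the 12 members with the most reads, the 10 higher and 10 lower with the interval farthest from no change, members whose share of family reads differed by at least 5 percentage points, members next to the limit of 20 reads, and the parents of these. Other genes are named only where a member overlaps them, or as closest by sequence, chosen after their values were seen. H2-T-ps was moved out of a histone group that its symbol had matched by its letters.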

Additional observations from a re-analysis of the deposited data

How the results depend on the processing

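The 4 members more than 2-fold higher and the 4 more than 2-fold lower were counted again under other choices. TMM scaling, DESeq2 size factors and centring on the median of all rows left both counts at 4. CPM and FPKM ratios left 4 higher and gave 6 lower, the added members being Cdk3-ps and Hmga2-ps1. Adding 1 to TPM gave 2 higher and 2 lower. A limit of 1 read, with 54 members, gave 7 and 15, and 10 TPM in 1 library, with 11 members, gave 1 and 2. A limit of 100 reads gave 2 lower. A 1.5-fold threshold gave 7 and 10, a 3-fold threshold 2 lower, and intervals wholly past 2-fold 2 lower. Leaving out members whose compared transcript shares a 100-base window with another gene was an alternative chosen after seeing the data. It left 10 members, with 0 higher and 1 lower. The median log2 ratio ran from −0.27 (FPKM) to 0.02 (at least 100 reads).

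Counting each pseudogene alone gave 5 past 2-fold in place of 1 family with summed reads, and leaving out Hmga2, added after seeing the data, gave 0. Members whose share of family reads differed numbered 9 by non-overlapping intervals, 2 by 5 percentage points, and 4 by 5 points of summed TPM. The median share of windows found in the parent, 27.6% at 100 bases, was 55.6% at 50 and 12.2% at 150, and 35.1% against the transcripts of any other gene, which was added after seeing the data. Windows against the whole genome were not run because no genome sequence was used here. In single members 214 of the recomputed ratios kept their side of 2-fold, 4 fell inside it, 4 passed it and 0 of those past 2-fold changed sign.

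No paired analysis was possible because each genotype had 1 library, and none was left out for the same reason. Depth limits the lowest members, 10 of which had under 20 reads in one library.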
